A study of Mus musculus with 16 samples.

Results

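The mouse mitochondrial chromosome carries 37 genes, and the RNA counts of all 37 were followed here through 16 sequencing libraries from cultured neonatal cochlea. The genes were chosen by position alone, as every identifier placed on the mitochondrial chromosome among the 36536 gene identifiers counted in each library. They comprised 2 ribosomal RNA (rRNA) genes, 22 transfer RNA (tRNA) genes and 13 protein-coding genes.

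Cochleas came from Lfng-EGFP mice of a B6;FVB background, in which a bacterial artificial chromosome transgene expresses green fluorescent protein under the control of Lfng, a modulator of Notch signaling active in cochlear supporting cells. The pups were 0 (P0) or 5 (P5) days old, and the tissue was kept in organ culture for 24 hours with the gamma-secretase inhibitor DAPT at 10 µM, which prevents Notch activation, or with 0.04% DMSO as vehicle. GFP+ and GFP- cells were then sorted, giving 8 groups with 2 libraries each. The sort followed transgene fluorescence and not cell identity, and all groups carried the transgene. GFP+ cells were the brightest of the dissociated cells, cells of weak fluorescence were not kept, and the structures lateral to the sensory epithelium, such as the stria vascularis, had been dissected off before culture at P0 and in part at P5. The labels do not say whether the 2 libraries of a group came from separate cultures or animals, so p-values measure the spread between these libraries, which may be technical.

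Total gene counts ran from 13755356 to 23637236 in GFP+ libraries and from 34869184 to 45465324 in GFP- libraries. Lfng itself stood between 178 and 833 CPM (counts scaled to a common library size, the usual counts-per-million unit) in GFP+ and between 5.46 and 22.4 CPM in GFP- libraries. In CPM over nuclear genes alone, 8 supporting cell markers summed to between 3629 and 7627 in GFP+ and between 359 and 768 in GFP- libraries, while 7 mesenchyme markers summed to between 146 and 2155 in GFP+ and between 9398 and 15002 in GFP-. The P0 DMSO GFP+ libraries stood apart from the other GFP+ libraries in detecting 30639 and 31345 genes, against 25651 to 27156. Library numbers in the deposit fell into separate stretches, with all GFP- libraries in the first, the P0 DMSO GFP+ libraries in the last and the other GFP+ libraries in between. The study's methods give an initial cDNA amplification for samples of few cells. A supplementary legend gives it for the cultured samples, GFP+ and GFP-. No label marks the libraries that received it, so library preparation may differ between the fractions. Fraction and stretch of library numbers cannot be told apart in any comparison of GFP+ with GFP- cells, and in bulk RNA a difference in cell number of a type cannot be told apart from a difference in RNA per cell.

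Mitochondria keep a small circular genome whose protein-coding genes specify core subunits of the respiratory chain and of ATP synthase, the machinery of oxidative phosphorylation. Both strands are transcribed as long precursors from which the tRNAs are cut out, releasing the rRNAs and mRNAs that lie between them. The rRNAs build the mitochondrial ribosome, the tRNAs decode its mRNAs, and all other mitochondrial proteins, including those that copy and transcribe this genome, are encoded in the nucleus. Mitochondrial mRNAs receive short poly(A) tails and the rRNAs only a few added bases, whereas cytoplasmic mRNAs carry long tails.

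The layout of the chromosome bears on where a read can be assigned to 1 gene, so the sequences at 4 such places are printed first, from the reference genome NCBIM37 (mm9), the build named for the counts. The first line is the plus strand from chrM:985-1133, with the tRNA gene mt-Tv in capitals between the last 40 bases of the 12S rRNA gene mt-Rnr1 and the first 40 bases of the 16S rRNA gene mt-Rnr2. The second is the minus strand of chrM:5089-5257, with the 32-base gap between the tRNA genes mt-Tc and mt-Tn in capitals, a stretch known as the origin of light-strand replication. The third is the minus strand of chrM:15356-15482, with mt-Tp in capitals after 60 bases of the non-coding control region. The fourth is the plus strand of chrM:7887-8009, with the 43 bases shared by the coding genes mt-Atp8 and mt-Atp6 in capitals.
mt-Rnr1, mt-Tv and mt-Rnr2: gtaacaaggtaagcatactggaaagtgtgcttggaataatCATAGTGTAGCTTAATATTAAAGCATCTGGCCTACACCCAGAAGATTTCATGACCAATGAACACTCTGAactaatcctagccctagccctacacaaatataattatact
mt-Tc, gap and mt-Tn: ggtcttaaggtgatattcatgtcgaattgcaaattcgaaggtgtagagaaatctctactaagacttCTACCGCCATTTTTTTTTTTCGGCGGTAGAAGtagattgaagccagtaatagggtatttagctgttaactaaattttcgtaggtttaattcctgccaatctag
mt-Tp: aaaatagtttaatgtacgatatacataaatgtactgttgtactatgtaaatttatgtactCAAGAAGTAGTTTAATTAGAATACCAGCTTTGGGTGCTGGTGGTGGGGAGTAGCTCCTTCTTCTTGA
mt-Atp8 and mt-Atp6: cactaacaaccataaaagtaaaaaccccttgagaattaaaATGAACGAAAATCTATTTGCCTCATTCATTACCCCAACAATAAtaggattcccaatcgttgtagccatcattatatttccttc

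Of the 22 tRNA genes, 19 had no count in any library. The tRNA genes were 59 to 75 bases long, shorter than the 100-base reads, and 17 of these 19 lay within 3 bases of a neighboring gene on both sides, as mt-Tv does. Along the linear reference sequence, whose ends were not joined, every 100-base window that touched one of these 19 genes also touched a second gene. Only mt-Tp, mt-Tn and mt-Tc could be touched by a window that met no other gene, with 67, 6 and 1 such windows, and these were the 3 tRNA genes with counts. The tRNA for proline, mt-Tp, took 96.3% of all tRNA counts and received 183 to 1012 counts per library. The tRNA for cysteine, mt-Tc, received 2 to 45 counts and the tRNA for asparagine, mt-Tn, 0 to 12. The tRNA values therefore rest on reads placed at these 3 genes and are no measure of tRNA abundance.

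The rRNAs separated the fractions. Together mt-Rnr1 and mt-Rnr2 took 24.5% ± 3.29 (SD, n = 8) of gene counts in GFP+ libraries and 0.0681% ± 0.0209 (SD, n = 8) in GFP- libraries. Shares of 20.2% to 29.8% in GFP+ and of 0.0441% to 0.109% in GFP- libraries left no overlap. Counting error was small beside this spread, since the 95% Wilson interval in the first P0 DMSO GFP- library began at 0.108% for a share of 0.109%, an interval that covers counting error only. The mean difference was 371-fold (297 to 464 within 2 standard errors), with an exact two-sided permutation p = 0.00154 within the 4 combinations of age and treatment, the smallest of 1296 arrangements, and 0.0231 after adjustment over 15 share tests. A ratio within each library needs no library total, and rRNA counts were 6.06 to 7.44 times the mitochondrial mRNA counts in GFP+ and 0.0146 to 0.0208 times in GFP- libraries.

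Each rRNA behaved alike. The 12S rRNA, mt-Rnr1, had a lowest, median and highest level of 59990, 79463 and 118317 CPM in GFP+ libraries and of 133, 192 and 318 CPM in GFP- libraries. The 16S rRNA, mt-Rnr2, had 142909, 174936 and 227863 CPM in GFP+ and 289, 414 and 631 CPM in GFP- libraries. Every GFP+ library lay far above every GFP- library for both genes. In edgeR's quasi-likelihood test, with a call at an adjusted p under 0.01 and a change of over 2-fold, mt-Rnr1 was higher in GFP+ by 8.68 (log2, SE 1.42, adjusted p = 0.00336) in P0 DMSO, 8.24 in P0 DAPT, 9.25 in P5 DMSO and 8.88 in P5 DAPT cultures. For mt-Rnr2 the log2 differences were 8.77 (SE 1.87, adjusted p = 0.00819), 8.44, 9.20 and 8.87, and both genes were called in all 4 comparisons. With DESeq2 size factors mt-Rnr2 lost its call in P0 DMSO cultures (log2 8.90, adjusted p = 0.0150). Without either P0 DMSO GFP+ library 0 members and 0 of all genes tested were called there, with log2 differences of 8.50 and 8.79 for mt-Rnr1 and 8.51 and 8.94 for mt-Rnr2. Without either P0 DMSO GFP- library 8 members were called, with 8743 of 23965 and 9170 of 23967 genes called in all.

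The ratio between the 2 rRNAs did not separate the fractions. The 16S to 12S count ratio was 2.22 ± 0.16 (SD, n = 8) in GFP+ and 2.15 ± 0.20 (SD, n = 8) in GFP- libraries, a 1.04-fold difference (0.957 to 1.13 within 2 standard errors) with an exact permutation p = 0.352. Nuclear RNAs listed as ending without a poly(A) tail, picked by symbol and mainly replication-dependent histone genes, also stood higher in GFP+ libraries. The 65 listed genes summed there to 124, 189 and 208 (lowest, median, highest) CPM over nuclear genes, against 46.2, 53.9 and 64.4 in GFP- libraries. Of the listed genes tested, 12 of 25 rose in GFP+ in P0 DMSO, 15 of 25 in P0 DAPT, 7 of 20 in P5 DMSO and 8 of 18 in P5 DAPT cultures, and none fell. Of all genes, 25.5%, 25.5%, 18.4% and 19.8% were called higher. Listed genes low in GFP- cells could enter these tests through GFP+ counts alone. Between DAPT and DMSO in GFP- cells, 11 of the 65 were tested at P0 and 10 at P5. The numbers that rose or fell are therefore no support for the difference in sums. Reads outside annotated genes made up 50.0% to 62.0% of records in GFP+ and 6.64% to 13.7% in GFP- libraries. The part of these differences between libraries in the rRNA result was not tested.

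**Figure D1:**
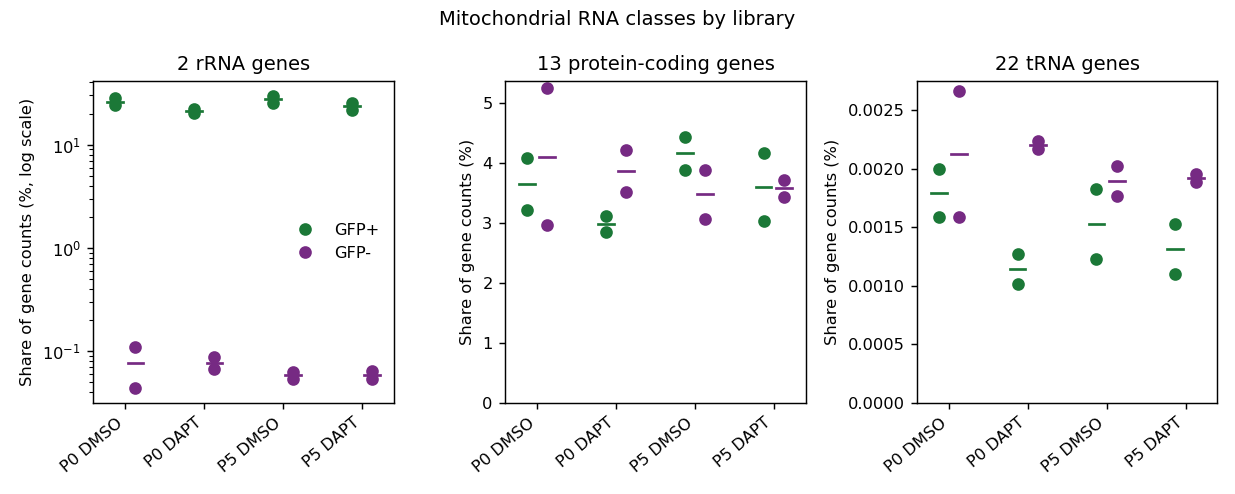
Share of gene counts (%) taken by mitochondrial rRNA, protein-coding and tRNA genes in each of the 16 libraries, by age and treatment; points are libraries, bars are means of 2 libraries, and the rRNA axis is logarithmic. GFP+ libraries (green) lie between 20.2% and 29.8% for rRNA and GFP- libraries (purple) between 0.0441% and 0.109%, while the protein-coding shares of the fractions overlap.

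As a share of gene counts, the 13 protein-coding genes as a class did not show this separation. They took 3.60% ± 0.614 (SD, n = 8) of gene counts in GFP+ libraries, from 2.85% to 4.45%, and 3.76% ± 0.729 (SD, n = 8) in GFP- libraries, from 2.97% to 5.25%. The ranges overlapped, and the difference was 0.96-fold (0.804 to 1.15 within 2 standard errors, exact permutation p = 0.67, adjusted p = 0.913). Its direction depended on the denominator. Against nuclear gene counts, which leave out the rRNAs, the mRNAs stood at 5.06 ± 1.13 per 100 in GFP+ and 3.91 ± 0.794 per 100 in GFP- libraries (SD, n = 8 each, exact permutation p = 0.0448, adjusted p = 0.286). Against all alignment records, where reads outside genes weigh on the GFP+ libraries, they stood at 1.33% ± 0.333 and 2.94% ± 0.564 (SD, n = 8 each, exact permutation p = 0.00154, adjusted p = 0.00772). By this measure the fractions did not overlap, at 0.929% to 1.85% in GFP+ and 2.31% to 4.03% in GFP- libraries. The lowest and the highest GFP- shares, 2.97% and 5.25%, both belonged to P0 DMSO libraries.

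Beneath this sum, near-equal as a share of gene counts only, the make-up of the mRNA counts differed between the fractions. Of the 12 mRNAs with counts in every library, 4 took a larger and 7 a smaller share of the mitochondrial mRNA counts in GFP+ libraries (exact permutation within age and treatment, Benjamini-Hochberg adjusted over the 12 shares, adjusted p from 0.00185 to 0.0387), and 10 of the 12 did not overlap between the fractions. Overlap was not counted over all genes, so whether 10 of 12 is unusual cannot be read from it. By another measure, levels in 2 against 2 libraries, 63.3% to 75.8% of all genes tested had an unadjusted p under 0.05 in edgeR's comparisons of fractions. Shares sum to 100%, so a larger share of one gene lowers the others. The cytochrome c oxidase genes moved both ways. Subunit I, mt-Co1, the catalytic core of the enzyme, took 44.2% ± 2.00 in GFP+ and 25.8% ± 0.252 in GFP- libraries (SD, n = 8 each). Subunit II, mt-Co2, which receives electrons from cytochrome c, took 2.56% ± 0.238 and 10.4% ± 0.247. Subunit III, mt-Co3, took 5.42% ± 0.309 and 11.5% ± 0.415. In all 3 genes the fractions did not overlap.

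The complex I genes spread more widely still. The share of mt-Nd3 was 0.0512% ± 0.00847 in GFP+ and 0.916% ± 0.0517 in GFP- libraries (SD, n = 8 each), 0.0553 times its GFP- value. The share of mt-Nd2 was 1.88% ± 0.249 against 5.04% ± 0.173, and that of mt-Nd6, the only coding gene on the minus strand, 0.696% ± 0.174 against 1.78% ± 0.0680. The other complex I genes went the other way or differed little, with mt-Nd5 at 9.32% ± 0.688 against 6.56% ± 0.197, mt-Nd1 at 9.57% ± 0.485 against 8.50% ± 0.144 and mt-Nd4 at 9.14% ± 0.535 against 9.28% ± 0.207 (exact permutation p = 0.549). Cytochrome b of complex III, mt-Cytb, took 11.8% ± 0.781 and 11.1% ± 0.326, with overlapping ranges. The ATP synthase genes both took smaller shares, mt-Atp8 0.0477% ± 0.0107 against 0.533% ± 0.0767 and mt-Atp6 5.34% ± 0.395 against 8.55% ± 0.187.

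**Figure D2:**
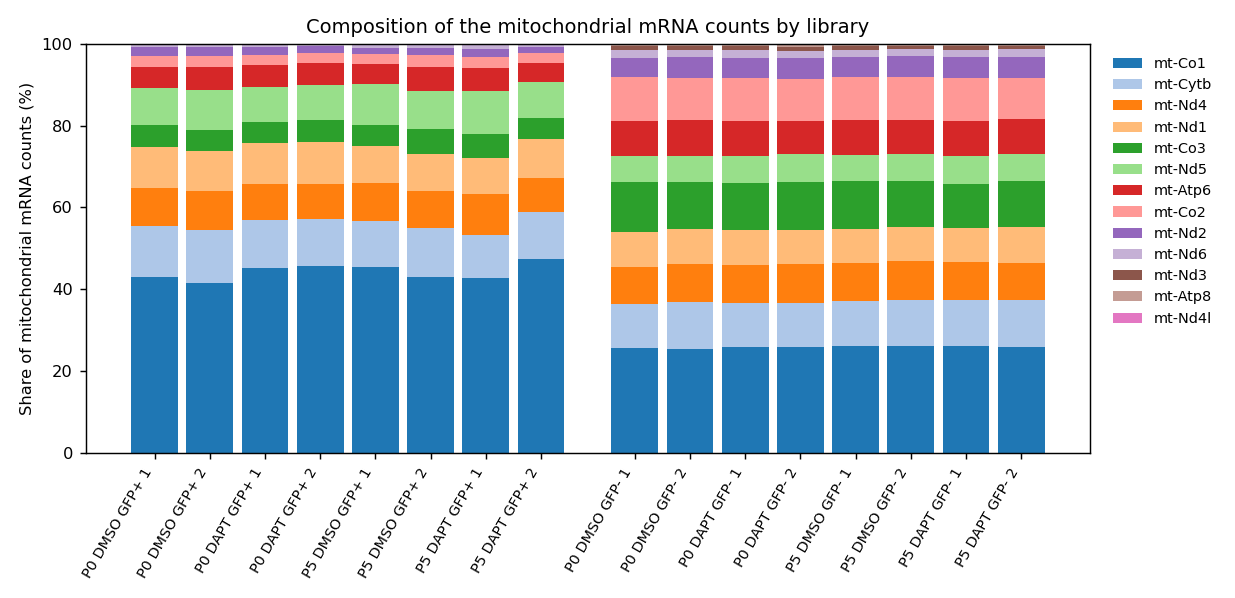
Share (%) of the mitochondrial mRNA counts taken by each of the 13 protein-coding genes, 1 bar per library, GFP+ libraries on the left and GFP- libraries on the right. The bars of a fraction resemble each other at both ages and under both treatments, with mt-Co1 at 41.4% to 47.3% in GFP+ and 25.4% to 26.2% in GFP- libraries.

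Read as levels in CPM, only falls passed the edgeR test among the mRNAs. The lowest, median and highest levels of mt-Nd3 were 13.3, 19.2 and 28.9 CPM in GFP+ libraries and 254, 315 and 447 CPM in GFP- libraries. Those of mt-Atp8 were 10.6, 18.9 and 26.3 CPM in GFP+ and 149, 183 and 221 CPM in GFP- libraries. Neither gene overlapped between the fractions. The log2 differences for mt-Nd3 were -4.16 (SE 0.37), -4.24, -3.58 and -3.73 in the order P0 DMSO, P0 DAPT, then the same treatments at P5, and those for mt-Atp8 were -3.12 (SE 0.25), -3.83, -2.82 and -3.17, with a call in each (adjusted p at most 0.00221).

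The next largest difference was that of mt-Co2, whose lowest, median and highest levels were 699, 1026 and 1265 CPM in GFP+ and 2954, 3647 and 4972 CPM in GFP- libraries, again without overlap. It was lower by a log2 of -1.84 in P0 DMSO (adjusted p = 0.0126, not called), and was called at -2.21 in P0 DAPT, -1.37 in P5 DMSO and -1.74 in P5 DAPT cultures. In P0 DAPT cultures 3 further mRNAs were called lower, mt-Nd6 (-1.80), mt-Nd2 (-1.58) and mt-Co3 (-1.19). No mRNA was called higher, and mt-Co1, the largest difference upward, had log2 differences of 0.88, 0.74, 1.38 and 1.02 (adjusted p = 0.281, 0.00555, 0.0398 and 0.0426). The fold of mt-Co1 in P0 DAPT cultures, 1.67, was under the limit of 2. These levels were scaled with rRNA in the total, and mt-Atp6 in P5 DMSO cultures (-0.06, not called) changed sign with DESeq2 size factors.

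In all, 4 of the 16 members tested were called in P0 DMSO, 8 in P0 DAPT, 5 in P5 DMSO and 5 in P5 DAPT cultures. Over all genes tested the shares called were 40.9%, 49.6%, 33.9% and 36.2%, so the counts by themselves set the members apart from other genes in no comparison. Without either GFP- library 3 members were called in P5 DAPT cultures, mt-Co2 and mt-Atp8 being lost, and mt-Co2 also lost its call in P5 DMSO cultures under 5 alternatives. The 21 members left out of the test were mt-Nd4l, mt-Tn and the 19 tRNA genes without counts. The pair of rRNAs were the only members called higher.

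**Figure D3:**
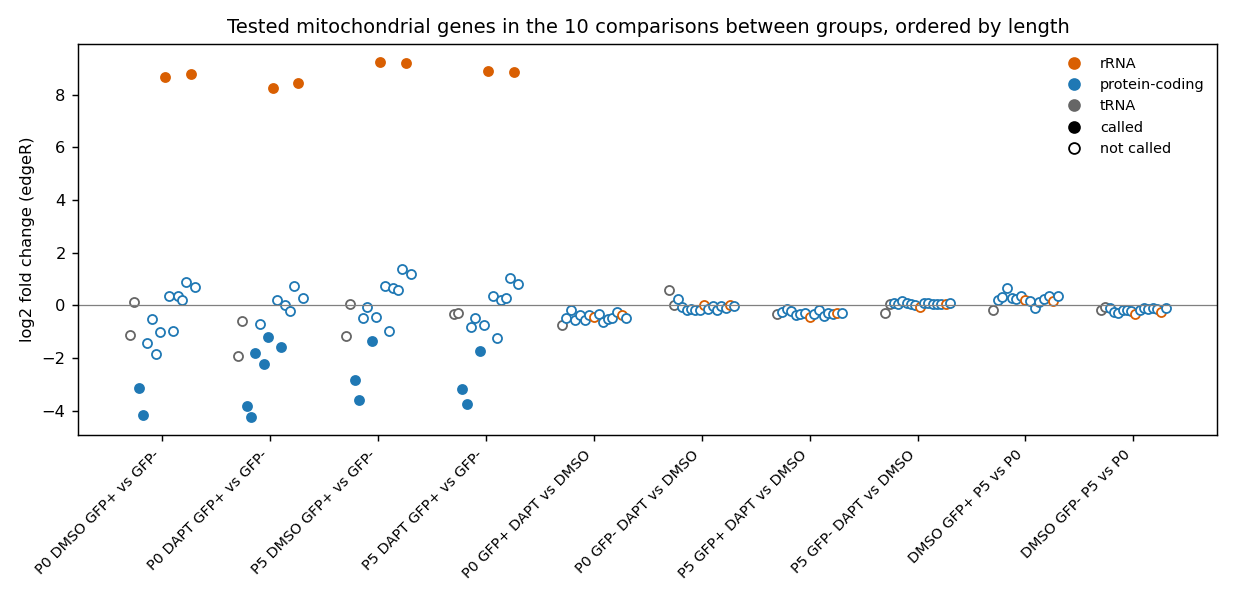
log2 fold change (edgeR) of each tested mitochondrial gene in the 10 comparisons between groups, ordered by gene length within a comparison; filled points passed the limits (adjusted p under 0.01, over 2-fold) and open points did not. Called genes appear only in the 4 comparisons of fractions, with both rRNAs between 8.24 and 9.25 and the shortest mRNAs at the bottom.

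The mRNAs with smaller shares in GFP+ libraries were mostly the short ones. The 5 shortest of the 12 genes all had smaller shares (mt-Atp8 204 bases, mt-Nd3 348, mt-Nd6 519, mt-Atp6 681, mt-Co2 684), and the 4 genes with larger shares were 957 to 1824 bases long. Across the 12 genes, which share libraries and are not independent replicates, the log2 difference in share and gene length had Pearson's r = 0.849 and Spearman's rho = 0.825, and 0.79 and 0.709 across the 10 genes left without mt-Atp8 and mt-Nd3. Length did not order every pair. mt-Co2 and mt-Atp6 differ by 3 bases in length, yet their log2 differences were -2.03 and -0.68, and mt-Nd2 (1038 bases, -1.43) lay below the shorter mt-Nd1 (957 bases, 0.17).

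**Figure D4:**
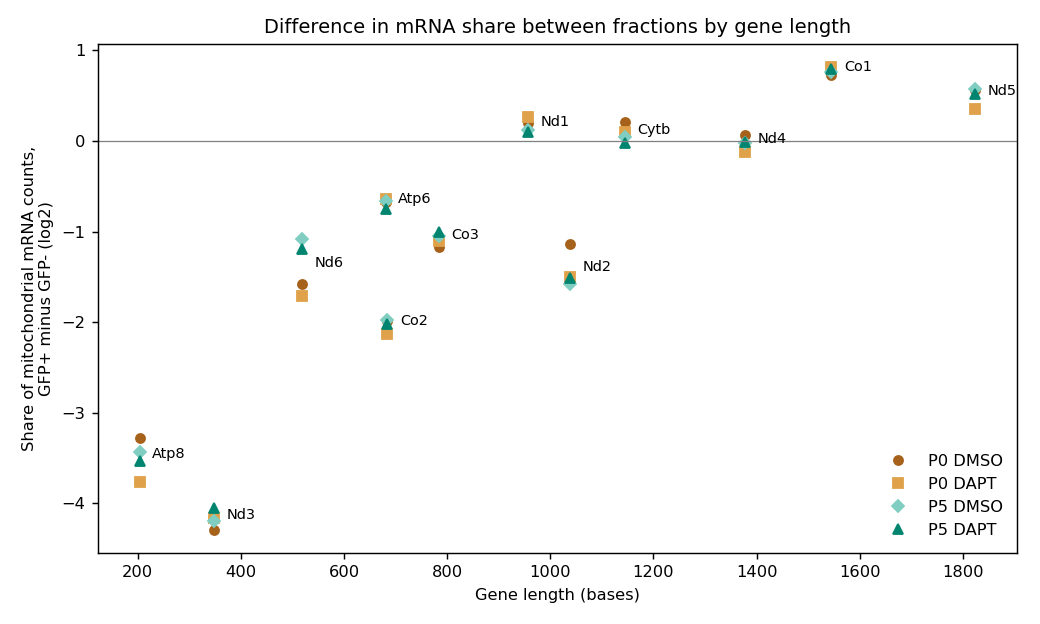
Difference in share of the mitochondrial mRNA counts, GFP+ minus GFP- (log2), against gene length in bases for 12 protein-coding genes, 1 symbol per combination of age and treatment. The 4 symbols of a gene lie close together, mt-Atp8 and mt-Nd3 lie below -3, and mt-Co1 and mt-Nd5 lie highest.

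Among nuclear genes, medians followed length at higher levels of expression and not over all genes tested. Of protein-coding genes with a mean of at least 10 CPM, the median log2 difference of GFP+ from GFP- in P5 DMSO cultures was -1.63 over the 35 genes with 198 to 495 bases of exon, -1.05 over the 231 of the next class, up to 1000 bases, and 0.04 over the 5277 of the longest class, from 4001 bases. At 10 CPM or more the medians rose with each of the 7 classes of length in all 4 comparisons of fractions. Over all protein-coding genes tested they did not, and the median of the shortest class was 0.37, -0.20, -0.21 and 0.25 in P0 DMSO, P0 DAPT, P5 DMSO and P5 DAPT cultures, against -0.02, 0.05, 0.07 and 0.10 in the longest class. The class next to the shortest in P0 DMSO cultures, below 0 at 10 CPM or more, stood at 1.73 over all genes tested. The part of transcript length in the make-up of the mitochondrial mRNAs was not tested apart from the fraction.

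Copies of the mitochondrial chromosome in the nuclear genome bear on the same genes. A long near-identical copy lay on the minus strand of chr1:24618374-24623027 and matched chrM:6390-11042 with an identity of 99.936% over 4654 aligned bases. It holds 6 protein-coding genes whole, mt-Co2, mt-Atp8, mt-Atp6, mt-Co3, mt-Nd3 and mt-Nd4l, and all but mt-Nd3 without a difference. Every 100-base window inside these 6 genes had a nuclear match with at most 2 differences, as had 71.1% of those in mt-Co1, 60.8% in mt-Nd4, 12.1% in mt-Nd2, 10.5% in mt-Rnr2, 9.62% in mt-Nd5 and 1.90% in mt-Nd6. No such window was found in mt-Rnr1, mt-Nd1 or mt-Cytb. Reads with several alignments were 3.95% to 8.56% of records in GFP+ and 6.78% to 8.73% in GFP- libraries, and their part in the differences between mRNAs was not tested.

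The gene mt-Nd4l, a complex I subunit that overlaps the start of mt-Nd4 by 7 bases, had 0 counts in every GFP+ library and 0 to 3 in the GFP- libraries, while its neighbors mt-Nd3 and mt-Nd4 had at least 253 and 47464 counts in each library. The count table also holds an identical nuclear copy of it, Gm10222 at chr1:24619243-24619539 on the minus strand. Gm10222 received 92 to 300 counts in GFP+ libraries and 34 to 62 in GFP- libraries. The counts of both genes are uncertain, since their sequences are identical over 297 bases. The plus strand of mt-Nd4l (chrM:9877-10173) follows with the 7 bases shared with mt-Nd4 in capitals, together with the first 300 bases of mt-Nd3 (chrM:9459-9758), the mRNA with the largest difference between fractions, where the capital marks the position at which the chromosome 1 copy differs.
mt-Nd4l: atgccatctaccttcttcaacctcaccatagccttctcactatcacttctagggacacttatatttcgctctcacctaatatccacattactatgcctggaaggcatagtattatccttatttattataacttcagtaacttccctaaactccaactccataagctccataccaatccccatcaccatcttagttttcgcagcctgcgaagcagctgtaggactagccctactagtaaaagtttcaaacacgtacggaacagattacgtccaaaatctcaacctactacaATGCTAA
mt-Nd3: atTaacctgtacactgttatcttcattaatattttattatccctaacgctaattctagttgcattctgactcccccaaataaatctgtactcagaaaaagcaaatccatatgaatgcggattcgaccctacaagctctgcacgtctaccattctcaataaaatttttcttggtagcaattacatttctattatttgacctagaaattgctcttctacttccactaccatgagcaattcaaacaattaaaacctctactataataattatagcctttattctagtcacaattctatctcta

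Per kilobase of gene, the order of the mRNAs also differed between the fractions. In GFP- libraries mt-Co1 (5921 ± 964 CPM per kilobase, SD, n = 8), mt-Co2 (5400 ± 978), mt-Co3 (5205 ± 989) and mt-Atp6 (4444 ± 712) stood highest, and neighbors in this order differed by less than their spread. In GFP+ libraries mt-Co1 (10974 ± 2383) stood alone, above mt-Cytb (3937 ± 836), mt-Nd1 (3816 ± 721) and mt-Atp6 (3015 ± 680). At the low end stood mt-Nd6, mt-Nd3 and mt-Atp8 in GFP- libraries (1221 ± 230, 934 ± 177 and 915 ± 119) and mt-Nd3 in GFP+ libraries (56.5 ± 15.3). The rRNAs exceeded every mRNA in GFP+ libraries, mt-Rnr2 at 113660 ± 19440 and mt-Rnr1 at 85483 ± 19167 CPM per kilobase, and lay below every tested mRNA in GFP- libraries, at 274 ± 67.2 and 214 ± 61.9.

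The tRNA class, in effect mt-Tp, took 0.00144% ± 0.000351 of gene counts in GFP+ and 0.00204% ± 0.00033 in GFP- libraries (SD, n = 8 each). The ranges overlapped, and the difference was 0.699-fold (0.57 to 0.858 within 2 standard errors, exact permutation p = 0.0154, adjusted p = 0.116). The lowest, median and highest levels of mt-Tp were 9.77, 14.3 and 21.4 CPM in GFP+ and 14.8, 18.6 and 21.97 CPM in GFP- libraries. It was called in no comparison, with log2 differences between fractions of 0.11, -0.61, 0.05 and -0.31. mt-Tc, with 2 to 7 counts in GFP+ and 12 to 45 in GFP- libraries, had log2 differences of -1.14, -1.91, -1.15 and -0.33 and was not called either. mt-Tn had too few counts to be tested.

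In DAPT cultures no mitochondrial gene passed the limits against DMSO. In P0 GFP+ cells, where 8.37% of all genes were called between DAPT and DMSO (4.2% higher and 4.17% lower), 0 of 15 members tested were called by edgeR and 0 by DESeq2, with 10 at an unadjusted p under 0.05, as were 40.3% of all genes tested. All 15 lay below DMSO, from -0.19 (mt-Nd3) to -0.75 (mt-Tp), with a median of -0.48 against -0.05 over all genes tested and a smallest adjusted p of 0.0142 (mt-Nd2, -0.65, SE 0.15). Without the first P0 DMSO GFP+ library 13 of 15 lay below, with a median of -0.25. The rRNA share was 28.1% and 23.9% in the P0 DMSO and 20.2% and 21.9% in the P0 DAPT GFP+ libraries, without overlap. The P0 DMSO and P0 DAPT GFP+ libraries lie in different stretches of library numbers, so treatment and stretch cannot be told apart there. Hair cell markers moved in the same comparison, with the sum of 7 markers at 505 and 414 CPM over nuclear genes in the P0 DMSO and at 3162 and 2901 in the P0 DAPT GFP+ libraries. Atoh1, the transcription factor that starts hair cell differentiation, stood at 8.29 and 5.29 CPM with DMSO and 275 and 237 CPM with DAPT. The sum of the 8 supporting cell markers was 7627 and 6658 with DMSO and 3867 and 4023 with DAPT. The part of these markers' cells in the mitochondrial values was not tested.

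In P5 GFP+ cells all 15 members again lay below DMSO, from -0.13 to -0.45, but 0 were called by edgeR and 0 by DESeq2, with 0 at an unadjusted p under 0.05, a smallest adjusted p of 0.972 and 0.0% of all genes called. The shared direction rested on 1 library, since without the second P5 DAPT GFP+ library 8 members lay above and 7 below DMSO with a median of 0.01, against -0.31 with all libraries and -0.72 without the first P5 DAPT GFP+ library. Without the first P5 DMSO GFP+ library 13 lay below, with a median of -0.19. The sum of the hair cell markers was 470 and 431 CPM over nuclear genes with DMSO and 635 and 613 with DAPT. The rRNA share was 29.8% and 25.3% with DMSO and 25.3% and 21.7% with DAPT, with overlap. Over both ages the rRNA share in GFP+ libraries was 22.3% ± 2.16 with DAPT and 26.8% ± 2.67 with DMSO (SD, n = 4 each, 0.832-fold, 0.726 to 0.955 within 2 standard errors), with an exact permutation p = 0.0857, where 4 against 4 libraries allow no p below 0.0286, and an adjusted p of 0.321. The protein-coding share was 3.29% ± 0.601 with DAPT and 3.91% ± 0.517 with DMSO (exact permutation p = 0.171, adjusted p = 0.514). In edgeR's interaction test of the DAPT response between the ages, no difference passed the limits for the 15 members (0 called by edgeR and 0 by DESeq2, 0 with an unadjusted p under 0.05, smallest adjusted p = 0.447), where 1.1% of all genes were called (0.392% higher and 0.712% lower).

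In GFP- cells DAPT gave no call among the members or among all genes tested. At P0 the log2 differences ran from -0.18 to 0.59 over 16 members and at P5 from -0.28 to 0.15, with 0 called by edgeR and 0 by DESeq2, 0 at an unadjusted p under 0.05, and 0.0% of all genes called at either age. The rRNA share in GFP- libraries was 0.0684% ± 0.014 with DAPT and 0.0678% ± 0.0287 with DMSO (SD, n = 4 each, exact permutation p = 0.829), and the interval of the difference, 0.683 to 1.63-fold, was wide, with the 2 P0 DMSO libraries at 0.109% and 0.0441%.

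Age gave no call either. In DMSO cultures 13 of 15 members in GFP+ cells lay higher at P5 than at P0, from -0.16 to 0.66 with a median of 0.23, and 0 were called by edgeR or DESeq2, with 3.32% of all genes called (2.01% higher and 1.3% lower). The one member with an unadjusted p under 0.05 was mt-Nd6, at 275 and 196 CPM at P0 and 438 and 328 CPM at P5 (log2 0.66, SE 0.21, adjusted p = 0.0804), where 29.8% of all genes tested had such a p. This comparison and the interaction rest on the P0 DMSO GFP+ libraries, which stand apart in genes detected and in library numbers, and the median was 0.45 without the first of them and 0.08 without the second. In GFP- cells all 16 members lay lower at P5, from -0.33 to -0.07, with 0 called by edgeR and 0 by DESeq2, 0 at an unadjusted p under 0.05 and 0.0% of all genes called. The direction turned without the first P0 DMSO GFP- library, when all 16 lay higher at P5 with a median of 0.23, against -0.19 with all libraries. Without the second it was -0.47, without the first P5 DMSO GFP- library -0.02 (6 of 17 higher) and without the second of those -0.36. The rRNA share at P5 was 1.09 times that at P0 in GFP+ libraries (0.896 to 1.32 within 2 standard errors, exact permutation p = 0.429) and 0.804 times in GFP- libraries (0.539 to 1.20, exact permutation p = 0.314).

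Among nuclear genes for the same organelle, subunits of oxidative phosphorylation and of the mitochondrial ribosome were called lower in GFP+ cells more often than higher. Of the 85 nuclear subunits of oxidative phosphorylation, 37 of 81 tested fell in P0 DMSO, 46 of 81 in P0 DAPT, 27 of 81 in P5 DMSO and 42 of 82 in P5 DAPT cultures, and 1, 3, 1 and 0 rose. Their median log2 differences were -1.05, -1.13, -0.92 and -1.15, against 0.18, -0.01, -0.03 and 0.03 over all genes tested, of which 15.5%, 24.0%, 15.5% and 16.4% were called lower. The complex I subunit Ndufa6 fell from 54.5 and 45.1 CPM in P0 DMSO GFP- to 7.65 and 7.33 CPM in GFP+ libraries (log2 -2.62, SE 0.23). The complex I subunit Ndufa1 fell from 27.2 and 30.7 to 5.36 and 4.43 CPM. Cox4i2, an isoform of cytochrome c oxidase subunit IV, rose in the same comparison, from 1.11 and 2.58 to 22.8 and 36.4 CPM. It rose also in P0 DAPT (log2 3.27) and P5 DMSO cultures (2.30), and Ndufb2 (1.02) and Atp5g1 (1.13) rose in P0 DAPT cultures, named after their values were seen. These genes are short, with a median exonic length of 1243 bases among those tested, and the part of length in their fall was not tested.

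Of the 76 mitochondrial ribosomal protein genes, 75 were tested, and 19, 25, 17 and 19 fell in the 4 comparisons in the order given, with medians of -0.67, -0.52, -0.71 and -0.84 and 1 gene rising in each. They amount to 25.3%, 33.3%, 22.7% and 25.3% of those tested, against the shares of all genes called lower given above. The ribosomal protein gene that rose was Mrpl48, at 973 and 928 CPM in P0 DMSO GFP+ against 34.2 and 38.9 CPM in GFP- libraries. The large-subunit protein Mrpl12 fell to 3.30 and 2.14 CPM from 18.6 and 16.9 CPM. Both kinds of protein join mitochondrially encoded partners, the rRNAs in the case of the ribosome.

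The listed genes that copy and transcribe the mitochondrial genome or process its RNAs showed no common direction as a set. Of 26, 21 were not called in each comparison of fractions, 1 or 2 rose and 3 or 4 fell, with medians of -0.16, 0.10, 0.03 and 0.05. The shares that fell, 11.5% in 3 comparisons and 15.4% in P5 DAPT cultures, lay below those of all genes (15.5%, 24.0%, 15.5% and 16.4%), and the shares that rose, at most 7.69%, below 18.4% to 25.5%. The mitochondrial RNA polymerase Polrmt fell in each comparison, by log2 differences of -1.84, -1.38, -1.29 and -1.82, and stood at 10.3 and 8.25 CPM in P0 DMSO GFP+ against 35.8 and 36.2 CPM in GFP- libraries. Tfam, which packages mitochondrial DNA and starts its transcription, had log2 differences of -0.73, -0.66, -0.78 and -1.18 and was called only in P5 DAPT cultures (adjusted p = 0.00564). The transcription factor Tfb2m had 0.31, 0.80, 0.46 and 0.39 and was not called. Polg2, the accessory subunit of the mitochondrial DNA polymerase, rose, at 21.3 and 42.7 CPM in P0 DMSO GFP+ against 11.5 and 9.04 CPM in GFP- libraries, while the catalytic subunit Polg fell to 17.0 and 17.6 from 64.6 and 70.2 CPM. Polg2 rose in all 4 comparisons, and Polg was not called in P0 DAPT cultures (-0.86). Peo1, which encodes the mitochondrial DNA helicase, fell in all 4 (-1.63, -1.10, -1.31 and -1.77), Top1mt fell in P0 DAPT (-1.79), Ssbp1 rose in both DMSO comparisons (1.16 and 1.09) and Tfb1m rose in P0 DAPT cultures (1.09), these 4 being named after their values were seen. Of 6 regulators of mitochondrial number, Esrra, a nuclear receptor, rose in each comparison (log2 1.48, 2.29, 3.22 and 3.27), and Pprc1 fell in P0 DMSO cultures (-1.07).

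**Figure D5:**
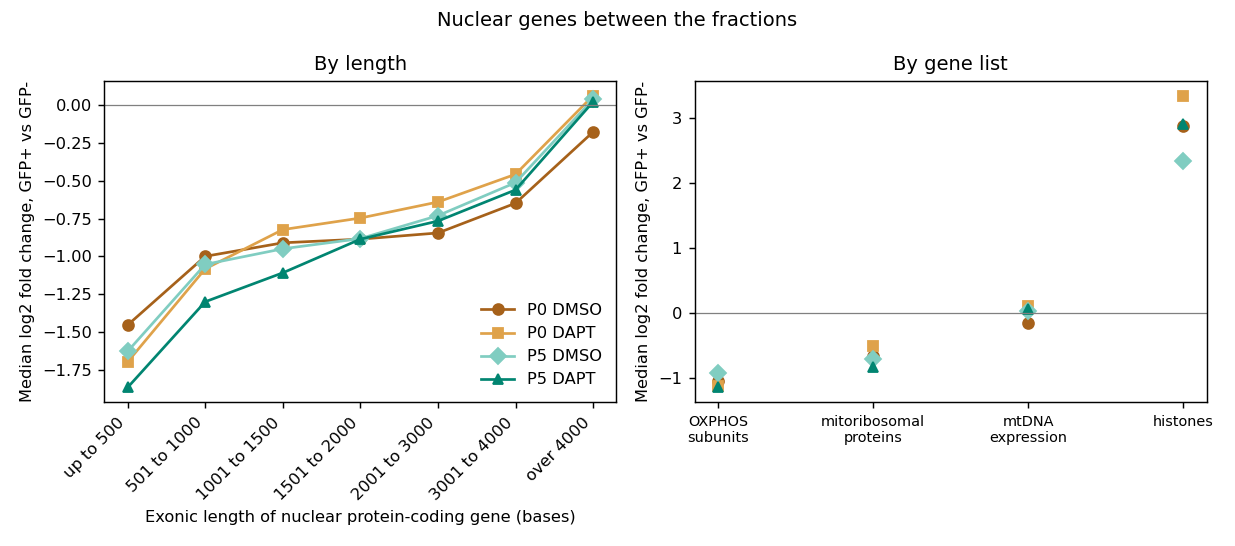
Median log2 fold change of GFP+ from GFP- cells for nuclear genes in the 4 combinations of age and treatment, by exonic length of protein-coding genes with at least 10 CPM (left) and by gene list (right). Medians rise with length on the left. On the right oxidative phosphorylation and ribosomal protein genes lie below 0 and mitochondrial DNA expression genes near 0. The genes listed as RNAs without a poly(A) tail, mainly histone genes and labelled as such, lie above 2. They could enter the tests through GFP+ counts alone.

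With DAPT few genes of these nuclear lists were called. In P0 GFP+ cells, where 4.17% of all genes were called lower and 4.2% higher, 1 of 80 oxidative phosphorylation subunits fell (Cox4i2, from 22.8 and 36.4 to 5.39 and 8.01 CPM) and 1 mitochondrial ribosomal protein gene moved each way, Mrpl48 lower and Mrpl37 higher. Lrpprc, which stabilizes mitochondrial mRNAs, rose from 61.4 and 56.4 to 136 and 128 CPM (log2 1.13, adjusted p = 0.000444). Ppargc1a, a coactivator that raises mitochondrial number, fell from 11.4 and 11.1 to 2.67 and 3.93 CPM. In P5 GFP+ cells and in GFP- cells at both ages no gene of these lists was called, where 0.0% of all genes were. Between P5 and P0 in DMSO GFP+ cells, where 1.3% of all genes were called lower and 2.01% higher, Cox4i2 fell to 9.29 and 8.98 CPM, Mrpl48 fell from 973 and 928 to 259 and 303 CPM, and Esrra rose from 56.7 and 82.5 to 178 and 336 CPM. The DAPT differences in P0 GFP+ cells and the age differences all rest on the same P0 DMSO GFP+ libraries that stand apart. Neither treatment nor age can be told apart there from the stretch of library numbers. Mrpl48 stood at 338 and 356 CPM in the P0 DAPT GFP+ libraries.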

How the data were processed

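RNA from 16 samples, GFP+ or GFP- cells sorted from cultured cochlea, was made into libraries with a poly(A)-selecting kit and sequenced by the authors as 100-base paired ends. An initial cDNA amplification is described for samples of few cells, and no label marks the libraries that received it. The submitters' processing notes name TopHat 1.4.0, HTSeq, DESeq 1.9.2 and the mm9 build. The authors deposited raw counts of reads per gene, 1 file per library, with 36536 identifiers and 5 closing lines for reads outside genes, ambiguous or not unique, which were kept out of library totals. The counting mode and strand setting are not given in the sources used here, so reads of genes on opposite strands, such as mt-Nd6 and mt-Nd5 where they overlap, cannot be told apart.

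Of the identifiers, 34391 were named through GENCODE M1. Shares were computed per library with Wilson 95% intervals, which cover counting error only, and compared on the log2 scale by two-sided exact permutation tests within age and treatment (fractions) or over 4 against 4 libraries (DAPT, age), with Benjamini-Hochberg adjustment over 15 tests and a limit of 0.05. Standard errors are those of the difference of mean log2 values. Genes were tested with edgeR 4.0.16 (quasi-likelihood, TMM scaling, at least 10 counts in enough libraries and 15 in all) on the groups of each comparison, with a call at an adjusted p under 0.01 and over 2-fold. The code was tested on simulated data. CPM use 1 TMM scaling over all libraries. Alternatives were DESeq2 1.42.0, its size factors, no filter, an adjusted p limit of 0.05, all groups in 1 fit, the replicate block, other denominators and leaving out each library. Windows of 100 bases were compared with the nuclear genome by BLAST+ 2.17.0+, a match allowing 2 differences. All 37 members could be named, and of each nuclear list the 2 genes with the largest called change in each direction at 10 CPM or more, with Tfam, Polrmt and Tfb2m. Members and lists were chosen with earlier results of these data known.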

Additional observations from a re-analysis of the deposited data

How the results depend on the processing

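The rRNA difference between GFP+ and GFP- libraries was 8.54 (log2) and 8.45 to 8.64 with any 1 library left out. With the replicate number as a block it was 8.54 with an adjusted p of 0.117, and without the 4 P0 DMSO libraries, a choice made after seeing the data, 8.53 with an adjusted p of 0.139; in both cases fewer arrangements were available, so the smallest p they allow did not pass the limit of 0.05 over 15 tests. The protein-coding difference of fractions (log2 -0.06) was -1.17 as a share of all records (adjusted p = 0.00772), 0.36 against nuclear counts, and -0.10 to 0.014 with a library left out, turning without the first P0 DMSO GFP- library. The tRNA difference was -1.63 as a share of all records (adjusted p = 0.00772). The tRNA difference between ages in GFP+ (-0.03) was 0.085 over all records, 0.019 against nuclear counts and -0.19 to 0.13 with a library left out. In GFP- libraries the DAPT differences ranged with a library left out from -0.10 to 0.34 for rRNA, -0.044 to 0.21 for tRNA and -0.10 to 0.18 for protein-coding shares, and all 3 turned without the second P0 DMSO GFP- library; the protein-coding one turned also without the first P5 DMSO or the first P0 DAPT GFP- library, and the rRNA one without the latter. None of these share differences that turned had passed the limit. Members called between fractions numbered 4 in P0 DMSO cultures, but 7 with DESeq2, 8 with all 8 groups in the fit, and 0 to 8 with a library left out. Where it was 0, without either GFP+ library, 0 of all genes tested were called too. They numbered 5 in P5 DMSO cultures, but 8 without a filter on low counts, 8 with all 8 groups in the fit and 4 to 6 with a library left out, 8 in P0 DAPT cultures with any library left out, and 3 to 6 in P5 DAPT cultures. The cause of these shifts was not tested. Replicate numbers share only a number in the titles, and libraries of the same number deviated together with correlations from -0.25 to 0.73. With the replicate block 6, 8, 4 and 5 members were called in P0 DMSO, P0 DAPT, P5 DMSO and P5 DAPT cultures. The crossed pairing in P5 GFP+ cells, added after seeing the data, gave 0 calls for DAPT. DAPT, age and interaction comparisons gave 0 called members under every alternative run. Of 220 alternative values for 22 called pairs of gene and comparison, 201 kept their call, 19 lost it and 0 turned. The mRNA make-up gave 10 to 11 genes with a library left out and 10 with the block. With 2 libraries per group, differences under the spread between libraries could not be shown, and tRNA shares rest on 191 to 1067 counts per library.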
